A study of Mus musculus with 11 samples.

Results

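The 48 genes described here encode the subunits of the mouse proteasome and the chaperones and regulators named with them. They were chosen by symbol alone, Psm followed by a letter from a to g and a number, from a table of 38406 genes. The rule used no measured value, though it was set with earlier results of these data known. Their transcripts were counted in 11 libraries from fresh frozen cerebellar tumours of CD1 mice. In the N1ICD tumours (n = 3), Math1-positive cells expressed MYC with Gfi1 and N1ICD, which is the active inner fragment of Notch1. In the S100b-cell tumours (n = 3), cells positive for S100b expressed MYC with Gfi1. The MYC/Otx2 tumours (n = 3) carried MYC and Otx2, and the MYC/Gfi1 tumours (n = 2) carried MYC and Gfi1. The oncogenes of these last 2 groups are labelled constitutive, and the series presents both as Group 3 medulloblastoma models described earlier. All 4 groups share MYC, so none is free of the oncogene and none is normal cerebellum. The delivery of the genes and any pooling of animals were not given in the sources used here.

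As background, the proteasome is the protease that degrades ubiquitin-tagged proteins in the cytosol and nucleus. Its 20S core is a stack of rings in which alpha subunits gate the entry and beta subunits form the proteolytic chamber, and its 19S cap binds ubiquitin, removes it and unfolds the substrate with a ring of ATPases. Interferon induces other catalytic beta subunits, Psmb8, Psmb9 and Psmb10, which replace Psmb5, Psmb6 and Psmb7 in newly built cores to make the immunoproteasome, whose peptides feed class I antigen presentation. When proteasome activity falls short, the transcription factor Nfe2l1 raises the genes of the whole complex together.

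By role, 8 of the 48 genes belong to the alpha ring, 7 to the constitutive beta ring, 3 are immunoproteasome subunits and 1, Psmb11, is the thymus-specific catalytic subunit. The cap has 6 ATPases and 11 other subunits. A further 3 genes are cap assembly chaperones, 4 are core assembly chaperones, and 5 encode core activators or an inhibitor. Of these, 47 passed the low-count filter and were tested among 15228 genes, while Psmb11, with 0 to 19 counts per library, was not.

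Library totals ran from 2.58 to 3.38 M counts in the N1ICD tumours, from 12.8 to 15.2 M in the S100b-cell tumours, from 6.97 to 8.33 M in the MYC/Otx2 tumours and from 6.53 to 7.53 M in the MYC/Gfi1 tumours. Mitochondrially encoded genes took 23.2 to 27.6% of counts in the N1ICD tumours, 14.7 to 18.5% in the S100b-cell tumours, 5.18 to 5.74% in the MYC/Otx2 tumours and 5.96 to 6.00% in the MYC/Gfi1 tumours. Several libraries stood apart. N1ICD replicate 1 had the lowest summed level of the 48 genes, N1ICD replicate 2 had a summed interferon response of 1159 CPM (counts relative to the library total after TMM scaling), and MYC/Gfi1 replicate 2 had 4612 CPM of mature neuron markers, where replicate 1 had 240.2 CPM. Among 15 neural tumour markers, Atoh1, which encodes Math1, was at 0 in all N1ICD and all MYC/Otx2 libraries. It was the only marker of the 15 at 0 throughout either group. The 15 markers summed to at least 72.9 CPM in each N1ICD library and at least 286 CPM in each MYC/Otx2 library. Library sets differ by model in how their columns are named, except between the MYC/Otx2 and MYC/Gfi1 tumours, so library set and model cannot be told apart elsewhere. The labels do not tie the libraries of a group to separate animals. Each p-value therefore sets a difference against the spread between libraries, which was not shown to be a spread between animals. In bulk tumours, fewer cells of a type and less RNA per cell cannot be told apart.

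Summed over all 48 genes, the level was 4792, 7007 and 7098 CPM in N1ICD tumours, and 7979, 6842 and 6948 CPM in S100b-cell tumours. The sum was 8277, 7074 and 7509 CPM in the MYC/Otx2 tumours and 6019 and 5514 CPM in the MYC/Gfi1 tumours. The ranges overlapped except that both MYC/Gfi1 libraries lay below every S100b-cell and MYC/Otx2 library. No test was run on this sum.

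In 4 of the 6 comparisons between models a minority of the proteasome genes changed, in both directions in 3 of them and upward only in S100b-cell over MYC/Gfi1. A gene was called where the Benjamini-Hochberg adjusted p of edgeR's quasi-likelihood test, over all 15228 genes, was under 0.05. In the N1ICD over MYC/Gfi1 comparison 6 of 47 genes were called, 5 higher and 1 lower, against a background of 11.5% of all genes, with 5.47% higher and 6.05% lower. In N1ICD over MYC/Otx2, 9 of 47 were called, 3 higher and 6 lower, against a background of 21.8%, with 12% higher and 9.76% lower. For S100b-cell over MYC/Gfi1, 4 of 47 were called, all higher, against 4.35%, with 2.34% higher and 2.01% lower. For S100b-cell over MYC/Otx2, 4 of 47 were called, 3 higher and 1 lower, against 17.9%, with 10% higher and 7.89% lower. The members' share was near the background in both comparisons of N1ICD tumours with a constitutive model, below it in S100b-cell over MYC/Otx2 and above it, on 4 genes, in S100b-cell over MYC/Gfi1. Comparisons that share a group share its libraries. In the test of any difference among the 4 groups, 8 of 47 genes were called, against 28.4% of all genes.

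No member was called in the remaining pair of comparisons. In N1ICD over S100b-cell the background was 1.21%, with 0.808% higher and 0.407% lower. There 3 members (6.38%, against 18.7% of all genes) had an unadjusted p under 0.05, DESeq2 called 2, limma-voom called 0, and the smallest edgeR adjusted p was 0.0738, of Psmd9. In MYC/Otx2 over MYC/Gfi1 the background was 5.46%, with 2.43% higher and 3.03% lower. There 7 members (14.9%, against 28.3% of all genes) had an unadjusted p under 0.05, DESeq2 called 3, limma-voom called 0, and the smallest edgeR adjusted p was 0.0675, again of Psmd9. In all, 12 members were called in at least 1 of the 6 comparisons, with 23 calls among them, and 35 tested members were called in none.

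Single libraries moved these counts. The 6 calls in N1ICD over MYC/Gfi1 became 2 without MYC/Gfi1 replicate 2 or N1ICD replicate 2, and 3 without N1ICD replicate 3. The 9 calls in N1ICD over MYC/Otx2 became 4 without any 1 of the MYC/Otx2 libraries and 5 without N1ICD replicate 2. The 4 calls in S100b-cell over MYC/Gfi1 became 10 without MYC/Gfi1 replicate 1, 0 without MYC/Gfi1 replicate 2, S100b-cell replicate 1 or S100b-cell replicate 3, 1 without S100b-cell replicate 2, and 2 without MYC/Otx2 replicate 1 or 3. The 4 calls in S100b-cell over MYC/Otx2 became 2 without MYC/Otx2 replicate 2, S100b-cell replicate 1 or S100b-cell replicate 3, and 6 to 8 without N1ICD or MYC/Gfi1 libraries. Without MYC/Gfi1 replicate 1, MYC/Otx2 over MYC/Gfi1 had 8 calls, all higher, and without either MYC/Gfi1 library N1ICD over S100b-cell had 1. The 8 calls of any difference became 19 without MYC/Gfi1 replicate 1. Without N1ICD replicate 1, which had the lowest sum, the N1ICD comparisons called 6 members over MYC/Gfi1, 7 over MYC/Otx2 and 0 over S100b-cell tumours. Every call over MYC/Gfi1 was lost when the pair of groups was fitted alone, with an adjusted p of 0.107 for Psma4 to 0.264 for Psmf1 in the N1ICD tumours and of 0.134 for each gene in the S100b-cell tumours. With no low-count filter Psmd1 was called only in S100b-cell over MYC/Otx2 (adjusted p = 0.0577 to 0.0862 in the other 3), and the calls of Psmd7 in N1ICD over MYC/Gfi1 (adjusted p = 0.0569) and of Psma7 in S100b-cell over MYC/Gfi1 (adjusted p = 0.0509) were lost.

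The median log2 fold change over the 47 genes was 0.083 in N1ICD over MYC/Gfi1 (all genes, -0.011), -0.061 in N1ICD over MYC/Otx2 (all genes, 0.14) and -0.20 in N1ICD over S100b-cell (all genes, -0.057). It was 0.25 in S100b-cell over MYC/Gfi1 (all genes, 0.0094), -0.0067 in S100b-cell over MYC/Otx2 (all genes, 0.17) and 0.40 in MYC/Otx2 over MYC/Gfi1 (all genes, -0.14). In this last comparison 37 of 47 members had a fold change above 0, as did 6790 of 15228 genes, though no member was called. In S100b-cell over MYC/Gfi1, 35 of 47 members lay above 0 (7663 of 15228 genes). In N1ICD over S100b-cell, 33 of 47 lay below 0 (8060 of 15228 genes). Single libraries moved these medians. With each left out in turn, the median ran from -0.036 (without N1ICD replicate 2) to 0.37 (without MYC/Gfi1 replicate 1) in N1ICD over MYC/Gfi1, from -0.23 (without N1ICD replicate 2) to 0.095 (without N1ICD replicate 1) in N1ICD over MYC/Otx2, and from -0.28 to -0.014 (without the same libraries) in N1ICD over S100b-cell. It ran from 0.16 (without S100b-cell replicate 1) to 0.67 (without MYC/Gfi1 replicate 1) in S100b-cell over MYC/Gfi1, from -0.16 (without S100b-cell replicate 1) to 0.034 (without S100b-cell replicate 3) in S100b-cell over MYC/Otx2, and from 0.31 (without MYC/Otx2 replicate 1) to 0.52 (without MYC/Gfi1 replicate 1) in MYC/Otx2 over MYC/Gfi1. Changes beyond 1 on the log2 scale were seen in 0 to 10 of 47 members per comparison, 0 to 21.3%, where 30.9 to 46.6% of all genes moved that far. The median SD between libraries of a group, of log2 CPM with a prior count of 1, was 0.370 over the 47 members and 0.650 over all genes, and at a mean of at least 10 CPM it was 0.367 over 46 members and 0.440 over 8729 genes.

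**Figure D1:**
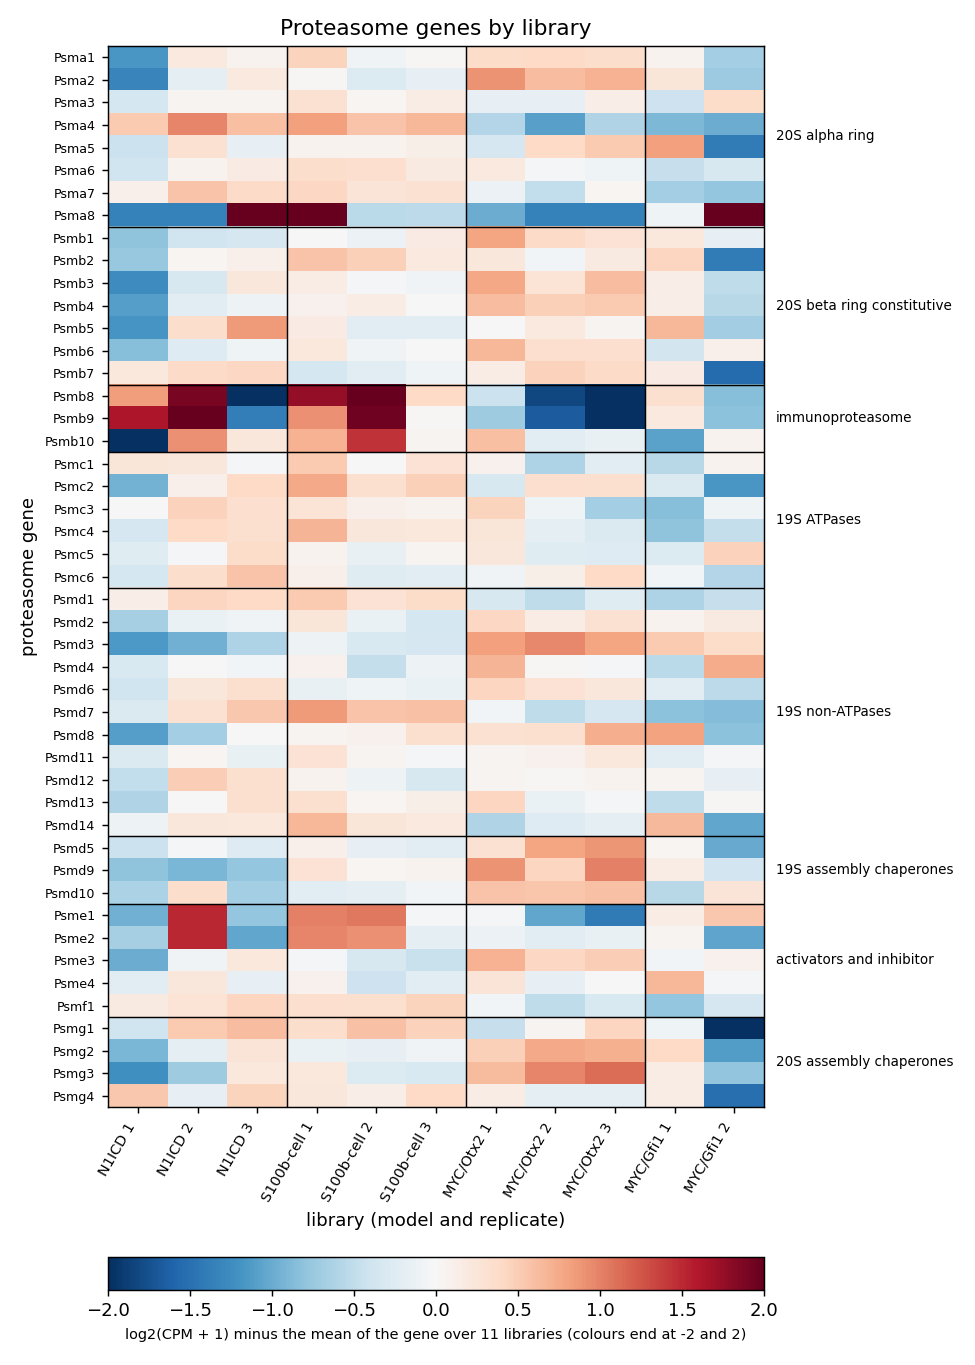
Levels of the 47 tested proteasome genes (rows, by role) in the 11 libraries (columns, by group), as log2(CPM + 1) minus the gene's mean over libraries. Psmb11, which was not tested, is not drawn. Most rows stay pale, Psma4 splits the libraries into 6 high and 5 low, and Psmb8 and Psmb9 vary within groups as well as between them.

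Psma4, an alpha ring subunit, rose in both conditional models over both constitutive ones. Its level was 167, 228 and 174 CPM in N1ICD tumours, 204, 172 and 184 CPM in S100b-cell tumours, 76.6, 53.8 and 75.9 CPM in MYC/Otx2 tumours, and 61.3 and 57.2 CPM in MYC/Gfi1 tumours. All 6 conditional libraries (N1ICD and S100b-cell) lay above all 5 constitutive ones, and no value fell between 76.6 and 167 CPM. The log2 fold change was 1.68 ± 0.25 (SE, adjusted p = 0.00606) in N1ICD over MYC/Gfi1 and 1.46 ± 0.21 (SE, adjusted p = 0.00213) in N1ICD over MYC/Otx2. It was 1.65 ± 0.25 (SE, adjusted p = 0.0152) in S100b-cell over MYC/Gfi1 and 1.44 ± 0.21 (SE, adjusted p = 0.00278) in S100b-cell over MYC/Otx2, all by edgeR. The N1ICD and S100b-cell means, 189.7 ± 33.3 and 187 ± 15.7 CPM (SD, n = 3 each), differed by less than the spread between libraries, with a log2 fold change of 0.02 ± 0.21 (SE). With mitochondrially encoded genes left out, the log2 fold changes over the constitutive groups were 1.43 to 1.68, with adjusted p from 0.00259 to 0.0158 by edgeR. The calls over MYC/Otx2 held under every alternative tried. Those over MYC/Gfi1 were lost when the pair of groups was fitted alone, and, of the single libraries left out, that of the S100b-cell tumours also when any 1 among S100b-cell replicates 1 and 3 and MYC/Gfi1 replicate 2 was left out (adjusted p = 0.0516 to 0.0657).

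Psma4 lies at chr9:54950790-54958030 on the plus strand of mouse chromosome 9 in GRCm38, the assembly also named mm10. Of the 50-base words in the last 500 bases of its transcripts, 27.0% also occur in Gm6542, a separate gene in the table, so reads could be shared. Gm6542 itself had 11.3 ± 3.19 CPM in N1ICD tumours, 14.2 ± 2.39 CPM in S100b-cell tumours (SD, n = 3 each), 3.87 ± 0.669 CPM in MYC/Otx2 tumours (SD, n = 3) and 4.44 ± 1.33 CPM in MYC/Gfi1 tumours (SD, n = 2). It was thus higher in the conditional libraries as well, at a level well below that of Psma4, and its part in the Psma4 result was not tested. Psma4 and Psmd1 were each called in all 4 comparisons of a conditional with a constitutive model, and of these genes only the Psma4 promoter is shown. It is the RefSeq window of 250 bases before to 50 after the start, chr9:54950609-54950908 on the plus strand of GRCm38.p6, and its capitals mark the single match among 5 motifs searched, an E-box (CACGTG, the core bound by MYC with MAX and by other factors) at -140 from the start.
Psma4: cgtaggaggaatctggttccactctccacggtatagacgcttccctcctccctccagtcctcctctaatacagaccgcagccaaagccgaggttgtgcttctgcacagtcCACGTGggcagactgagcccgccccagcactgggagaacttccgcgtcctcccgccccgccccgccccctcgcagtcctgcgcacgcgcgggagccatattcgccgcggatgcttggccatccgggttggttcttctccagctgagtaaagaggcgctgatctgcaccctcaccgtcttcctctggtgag

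Across the proteasome genes, RefSeq windows were found for 40 of the 48, in 43 windows, and each motif was searched on both strands. CACGTG occurred in 9.30% of these windows, in Psma4, Psmb10, Psmd9 and Psme3, and in 7.15% of all 32851 promoter windows. The antioxidant response core TGACNNNGC, a motif of the class that Nfe2l1 and Nfe2l2 bind, occurred in 14.0% of the windows and in 12.4% of all. CCAAT occurred in 32.6% and in 37.4% of all. A match is a description of letters and not a site of binding.

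Psma7, another alpha subunit, rose over the MYC/Gfi1 tumours. It had 391, 541 and 476 CPM in N1ICD tumours, 489, 436 and 452 CPM in S100b-cell tumours, 335, 260.0 and 373 CPM in MYC/Otx2 tumours, and 227 and 214 CPM in MYC/Gfi1 tumours. Every conditional library was above every constitutive one, although the lowest conditional value, 391 CPM, was close to the highest MYC/Otx2 value, 373 CPM. Over the MYC/Gfi1 tumours the log2 fold change was 1.09 ± 0.22 (SE, adjusted p = 0.0176) in N1ICD over MYC/Gfi1 and 1.06 ± 0.22 (SE, adjusted p = 0.0334) in S100b-cell over MYC/Gfi1. Over MYC/Otx2 it was 0.54 ± 0.19 (SE, adjusted p = 0.0718) in N1ICD and 0.51 ± 0.19 (SE, adjusted p = 0.0939) in S100b-cell tumours, neither of them called. The N1ICD over MYC/Gfi1 call was lost when any 1 library among N1ICD replicate 2 and MYC/Gfi1 replicate 2 was left out (adjusted p = 0.0507 to 0.0693), and the S100b-cell over MYC/Gfi1 call when any 1 library among S100b-cell replicates 1 to 3, MYC/Otx2 replicates 1 and 3 and MYC/Gfi1 replicate 2 was left out (adjusted p = 0.0508 to 0.138).

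Psma2 had the highest mean of the alpha ring genes, with 146, 319 and 417 CPM in N1ICD tumours, 368, 300.3 and 325 CPM in S100b-cell tumours, 679, 562 and 589 CPM in MYC/Otx2 tumours, and 431 and 219 CPM in MYC/Gfi1 tumours. The MYC/Otx2 libraries were above all others for this gene, yet it was not called in any comparison, with a log2 fold change of -1.05 ± 0.36 (SE, adjusted p = 0.0626) in N1ICD over MYC/Otx2. The other constitutive alpha genes, Psma1, Psma3, Psma5 and Psma6, were called nowhere. Psma8, the alpha subunit of the testis proteasome, had 0 to 17.7 CPM with most libraries at or near 0, so no fold is given for it.

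In the constitutive beta ring, 3 of 7 genes fell in N1ICD over MYC/Otx2 tumours, where 9.76% of all genes did. This count rests on few genes, and none of the 7 was called in any other comparison. Psmb1, a non-catalytic beta subunit, had 242, 320.4 and 338 CPM in N1ICD tumours, 420.0, 393 and 478 CPM in S100b-cell tumours, 732, 555 and 521 CPM in MYC/Otx2 tumours, and 489 and 377 CPM in MYC/Gfi1 tumours. All N1ICD libraries lay below all MYC/Otx2 libraries, with a log2 fold change of -1.01 ± 0.21 (SE, adjusted p = 0.0109). That call held under every alternative tried.

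Psmb4, which is non-catalytic as well, had 122, 223 and 245 CPM in N1ICD tumours, against 402, 364 and 378 CPM in MYC/Otx2 tumours. Its log2 fold change was -0.95 ± 0.27 (SE, adjusted p = 0.0335), and the groups did not overlap. The call was lost when any 1 library among N1ICD replicates 1 and 2, S100b-cell replicates 2 and 3 and MYC/Otx2 replicates 1 to 3 was left out (adjusted p = 0.051 to 0.09). Psmb4 in S100b-cell tumours had 279, 290.0 and 263 CPM and in MYC/Gfi1 tumours 288 and 178 CPM, between or across these ranges.

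Psmb6, which carries the caspase-like activity of the constitutive core, had 103, 156 and 175 CPM in N1ICD tumours, 216, 178 and 187 CPM in S100b-cell tumours, 297, 237 and 237 CPM in MYC/Otx2 tumours, and 144 and 199.9 CPM in MYC/Gfi1 tumours. It was lower in each N1ICD library than in each MYC/Otx2 library, with a log2 fold change of -0.83 ± 0.24 (SE, adjusted p = 0.0335). The Psmb6 call was lost when any 1 library among N1ICD replicates 1 and 2, S100b-cell replicates 2 and 3 and MYC/Otx2 replicates 1 to 3 was left out (adjusted p = 0.0509 to 0.106).

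The other constitutive catalytic genes were called nowhere. Psmb5, which carries the chymotrypsin-like activity, had 8.15, 25.4 and 36.5 CPM in N1ICD tumours, 22.2, 16.7 and 16.97 CPM in S100b-cell tumours, 19.8, 22.7 and 20.6 CPM in MYC/Otx2 tumours, and 31.8 and 11.8 CPM in MYC/Gfi1 tumours, with all groups overlapping. Psmb7, which carries the trypsin-like activity, had 59.6, 67.3 and 68.98 CPM in N1ICD tumours, 40.1, 44.2 and 48.2 CPM in S100b-cell tumours, 57.1, 70.998 and 67.4 CPM in MYC/Otx2 tumours, and 57.4 and 16.99 CPM in MYC/Gfi1 tumours. MYC/Gfi1 replicate 2 was the lowest library for Psmb7, and the S100b-cell libraries lay below every N1ICD and every MYC/Otx2 library. Psmb5 and Psmb7 each share most of the 50-base words at their transcript ends with other genes, so their levels are uncertain.

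**Figure D2:**
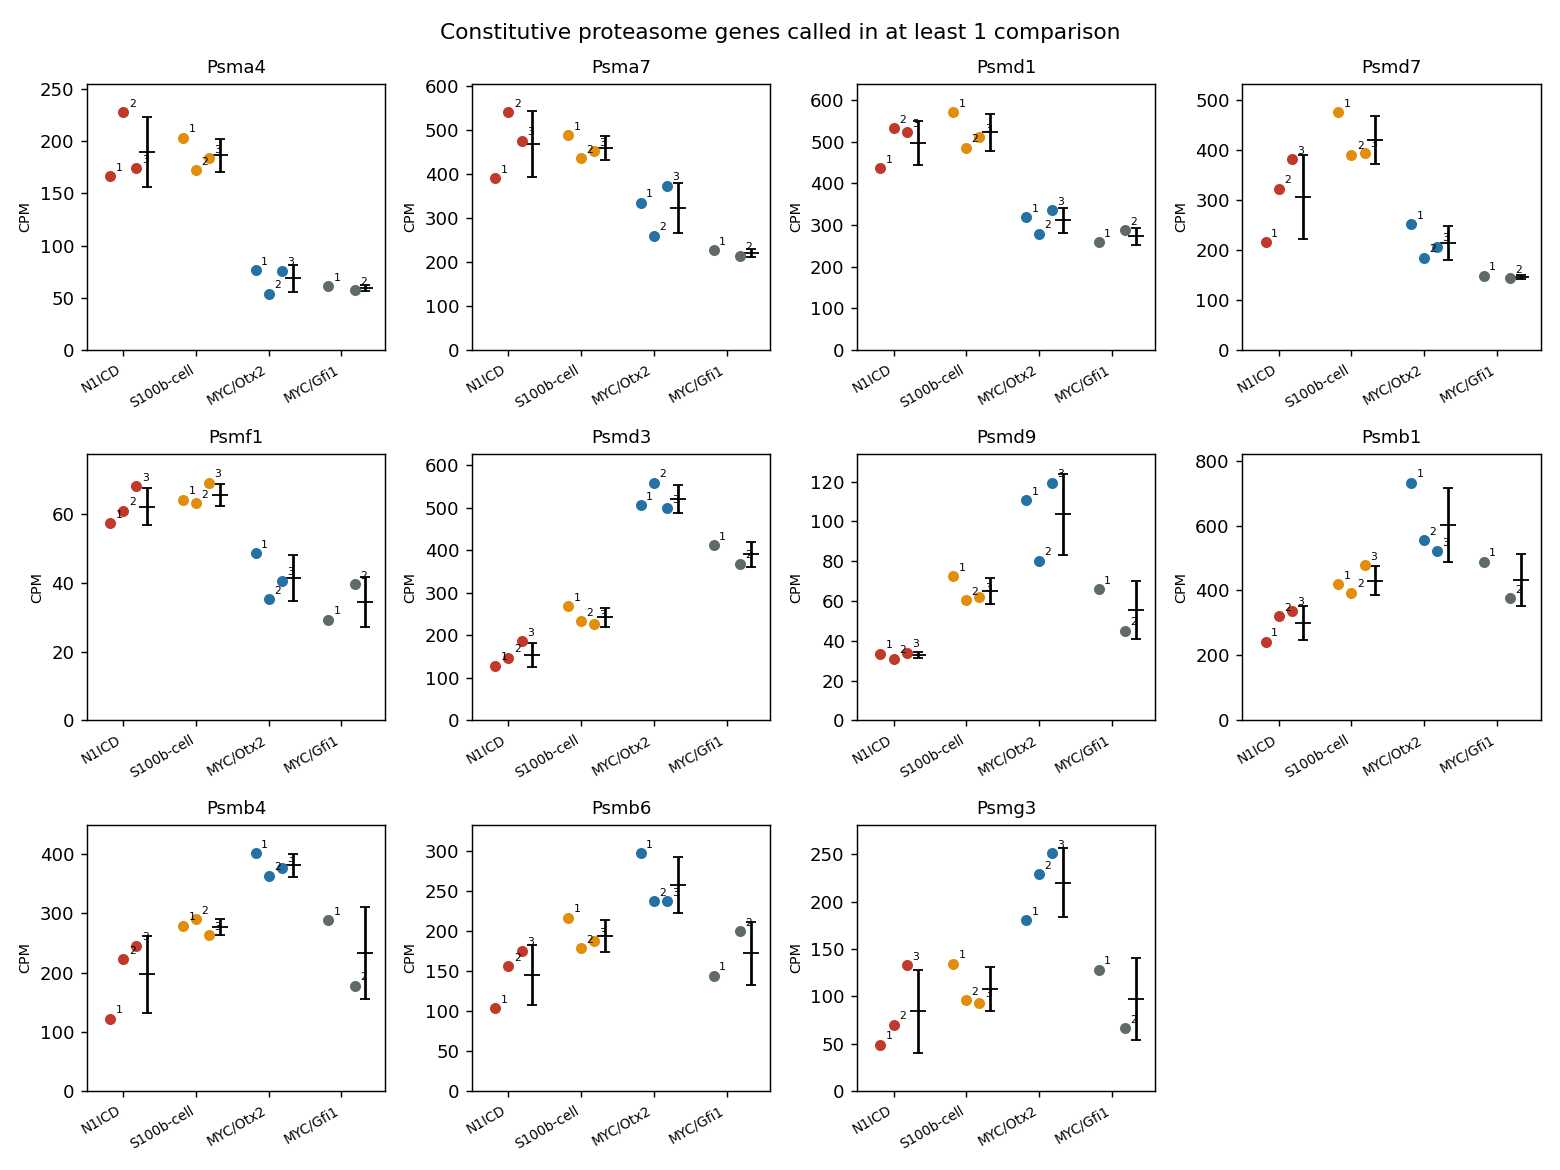
Levels in CPM, with axes starting at 0, of proteasome genes called in at least 1 comparison, 1 point per library, numbered by replicate, in the order N1ICD, S100b-cell, MYC/Otx2 and MYC/Gfi1. Psma4, Psma7, Psmd1 and Psmf1 have all 6 conditional libraries above all 5 constitutive ones, and Psmd3 has them all below.

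Of the 11 cap subunits that are not ATPases, 3 were called in at least 1 comparison, in opposite directions. In N1ICD over MYC/Gfi1, 2 rose and 1 fell, where 5.47% of all genes rose and 6.05% fell. In N1ICD over MYC/Otx2, 1 rose and 1 fell, against 12% and 9.76%. In S100b-cell over MYC/Gfi1, 2 rose, against 2.34%. In S100b-cell over MYC/Otx2, 2 rose and 1 fell, against 10% and 7.89%. Psmd1, the large scaffold that binds ubiquitin receptors, had 436, 533 and 523 CPM in N1ICD tumours, 571, 486 and 511 CPM in S100b-cell tumours, 319, 279 and 336 CPM in MYC/Otx2 tumours, and 258 and 287 CPM in MYC/Gfi1 tumours. Conditional libraries ran from 436 to 571 CPM and constitutive ones from 258 to 336 CPM, so the sets did not overlap. Psmd1 had a log2 fold change of 0.87 ± 0.19 (SE, adjusted p = 0.0221) in N1ICD over MYC/Gfi1, 0.68 ± 0.17 (SE, adjusted p = 0.0206) in N1ICD over MYC/Otx2, 0.94 ± 0.19 (SE, adjusted p = 0.0305) in S100b-cell over MYC/Gfi1 and 0.75 ± 0.17 (SE, adjusted p = 0.0166) in S100b-cell over MYC/Otx2. The calls over MYC/Gfi1 were lost when any 1 library among N1ICD replicates 2 and 3 and MYC/Gfi1 replicates 1 and 2 was left out (adjusted p = 0.0523 to 0.063) for the N1ICD tumours and when any 1 library among S100b-cell replicates 1 to 3, MYC/Otx2 replicates 1 to 3 and MYC/Gfi1 replicate 2 was left out (adjusted p = 0.0516 to 0.11) for the S100b-cell tumours. Those over MYC/Otx2 were lost when any 1 library among N1ICD replicate 2 and MYC/Otx2 replicates 1 to 3 was left out (adjusted p = 0.0506 to 0.0769) for the N1ICD tumours and when any 1 library among S100b-cell replicates 1 and 3 and MYC/Otx2 replicates 1 and 2 was left out (adjusted p = 0.0502 to 0.0682) for the S100b-cell tumours. Psmd1 shares 56.8% of its 50-base end words with the overlapping model Gm21972, which was listed at 0 in every library.

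Psmd3, a lid subunit, moved the other way. It had 129, 147 and 186 CPM in N1ICD tumours, 268, 233 and 228 CPM in S100b-cell tumours, 506, 559 and 499 CPM in MYC/Otx2 tumours, and 412 and 369 CPM in MYC/Gfi1 tumours. The N1ICD libraries were lowest, the S100b-cell libraries next, and every constitutive library was above both. Its log2 fold change was -1.76 ± 0.19 (SE, adjusted p = 0.000725) in N1ICD over MYC/Otx2, -1.10 ± 0.19 (SE, adjusted p = 0.0054) in S100b-cell over MYC/Otx2 and -1.34 ± 0.20 (SE, adjusted p = 0.00656) in N1ICD over MYC/Gfi1. It was -0.69 ± 0.20 (SE, adjusted p = 0.0768) in S100b-cell over MYC/Gfi1 and -0.66 ± 0.18 (SE, adjusted p = 0.112) in N1ICD over S100b-cell, neither of them called although the libraries did not overlap. Both calls over MYC/Otx2 held under every alternative, and that in N1ICD over MYC/Gfi1 was lost only when the 2 groups were fitted alone (adjusted p = 0.109).

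Psmd7, a lid subunit that pairs with the deubiquitinase Psmd14, had 215, 322 and 381 CPM in N1ICD tumours, 476, 391 and 395 CPM in S100b-cell tumours, 251, 184 and 207 CPM in MYC/Otx2 tumours, and 149 and 144 CPM in MYC/Gfi1 tumours. The S100b-cell libraries stood above every other, and N1ICD replicate 1 fell among the MYC/Otx2 values. Its log2 fold change was 1.53 ± 0.27 (SE, adjusted p = 0.024) in S100b-cell over MYC/Gfi1, 0.98 ± 0.23 (SE, adjusted p = 0.0201) in S100b-cell over MYC/Otx2 and 1.07 ± 0.27 (SE, adjusted p = 0.032) in N1ICD over MYC/Gfi1. In N1ICD over MYC/Otx2 it was 0.52 ± 0.23 (SE, adjusted p = 0.131), not called. The call in S100b-cell over MYC/Otx2 was lost when any 1 library among S100b-cell replicates 1 and 3 and MYC/Otx2 replicates 2 and 3 was left out (adjusted p = 0.0511 to 0.0763), that in S100b-cell over MYC/Gfi1 when any 1 library among S100b-cell replicates 1 to 3 and MYC/Gfi1 replicate 2 was left out (adjusted p = 0.053 to 0.0986), and that in N1ICD over MYC/Gfi1 when any 1 library among N1ICD replicates 2 and 3, S100b-cell replicates 2 and 3, MYC/Otx2 replicate 3 and MYC/Gfi1 replicates 1 and 2 was left out (adjusted p = 0.0504 to 0.114). The other 8 cap subunits of this role were called nowhere, and Psmd11, a lid subunit with the lowest SD over all libraries of the 47 genes, stayed between 78.9 and 119 CPM.

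None of the 6 cap ATPases was called in any comparison. Psmc3, with the highest mean among them, had 286, 395 and 359.9 CPM in N1ICD tumours, 346, 308 and 302 CPM in S100b-cell tumours, 389, 269.5 and 179 CPM in MYC/Otx2 tumours, and 157 and 270.3 CPM in MYC/Gfi1 tumours. Psmc1 had 340.0, 337 and 285 CPM in N1ICD tumours, 417, 287 and 354 CPM in S100b-cell tumours, 306, 187 and 246 CPM in MYC/Otx2 tumours, and 195 and 304 CPM in MYC/Gfi1 tumours. The median log2 fold change of the 6 was 0.59 in N1ICD over MYC/Gfi1 and 0.18 in N1ICD over MYC/Otx2, and it was 0.54 in S100b-cell over MYC/Gfi1 and 0.29 in S100b-cell over MYC/Otx2.

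Among cap assembly chaperones, Psmd9 fell in N1ICD over MYC/Otx2. It had 33.4, 31.03 and 34.1 CPM in N1ICD tumours, 72.6, 60.5 and 62.1 CPM in S100b-cell tumours, 111, 80.3 and 119 CPM in MYC/Otx2 tumours, and 65.9 and 45.03 CPM in MYC/Gfi1 tumours. The N1ICD values spanned only 31.0 to 34.1 CPM and lay below every other library, and the MYC/Otx2 libraries were the highest. Psmd9 had a log2 fold change of -1.66 ± 0.23 (SE, adjusted p = 0.002), and the call held under every alternative. Against the other groups Psmd9 was not called, with -0.99 ± 0.23 (SE, adjusted p = 0.0738) in N1ICD over S100b-cell and -0.76 ± 0.25 (SE, adjusted p = 0.078) in N1ICD over MYC/Gfi1. Psmd9 overlaps the gene model Gm26745 on the other strand, and the counting's strand setting was not given in the sources used here. Psmd10, also known as gankyrin, had 34.7, 69.7 and 33.7 CPM in N1ICD tumours, 46.5, 47.4 and 52.1 CPM in S100b-cell tumours, 81.4, 80.1 and 82.2 CPM in MYC/Otx2 tumours, and 36.5 and 65.4 CPM in MYC/Gfi1 tumours, and neither it nor Psmd5 was called.

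Of the core assembly chaperones, Psmg3 was called. It had 48.9, 70.1 and 133 CPM in N1ICD tumours, against 181, 229 and 251 CPM in MYC/Otx2 tumours, and these did not overlap. Psmg3 had a log2 fold change of -1.39 ± 0.38 (SE, adjusted p = 0.0292), with N1ICD replicate 3 nearest to the MYC/Otx2 values. The call was lost when any 1 library among N1ICD replicates 1 and 2 and MYC/Otx2 replicates 1 to 3 was left out (adjusted p = 0.0549 to 0.0888). Psmg3 in S100b-cell tumours had 135, 95.8 and 93.1 CPM and in MYC/Gfi1 tumours 128 and 66.1 CPM. Exons of Psmg3 overlap those of Gm26938 by 280 bases on the same strand, and the part of this overlap in its counts was not tested. Psmg2 had 26.2, 43.9 and 60.5 CPM in N1ICD tumours, 45.7, 44.7 and 48.01 CPM in S100b-cell tumours, 70.3, 85.3 and 82.9 CPM in MYC/Otx2 tumours, and 66.6 and 22.7 CPM in MYC/Gfi1 tumours, and Psmg1, Psmg2 and Psmg4 were called nowhere.

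Psmf1, the inhibitor PI31, was near the threshold throughout. It had 57.4, 61.01 and 68.2 CPM in N1ICD tumours, 64.2, 63.3 and 69.2 CPM in S100b-cell tumours, 48.6, 35.2 and 40.7 CPM in MYC/Otx2 tumours, and 29.3 and 39.7 CPM in MYC/Gfi1 tumours. All conditional libraries were above all constitutive ones, by at least 57.4 against 48.6 CPM. Psmf1 had a log2 fold change of 0.85 ± 0.24 (SE, adjusted p = 0.0496) in N1ICD over MYC/Gfi1, and that call was lost in 16 of 19 alternatives, among them the removal of any 1 library (adjusted p = 0.0519 to 0.141). It was 0.93 ± 0.24 (SE, adjusted p = 0.0577) in S100b-cell over MYC/Gfi1, 0.58 ± 0.21 (SE, adjusted p = 0.0756) in N1ICD over MYC/Otx2 and 0.66 ± 0.21 (SE, adjusted p = 0.0562) in S100b-cell over MYC/Otx2, none of them called.

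Over all roles, 4 of 47 tested members (8.51%) had all 6 conditional libraries above all 5 constitutive ones, where 5.96% of all genes did. The reverse held for 1 of 47 members (2.13%), Psmd3, and for 4.05% of all genes. Both counts rest on few genes and lie near the background.

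**Figure D3:**
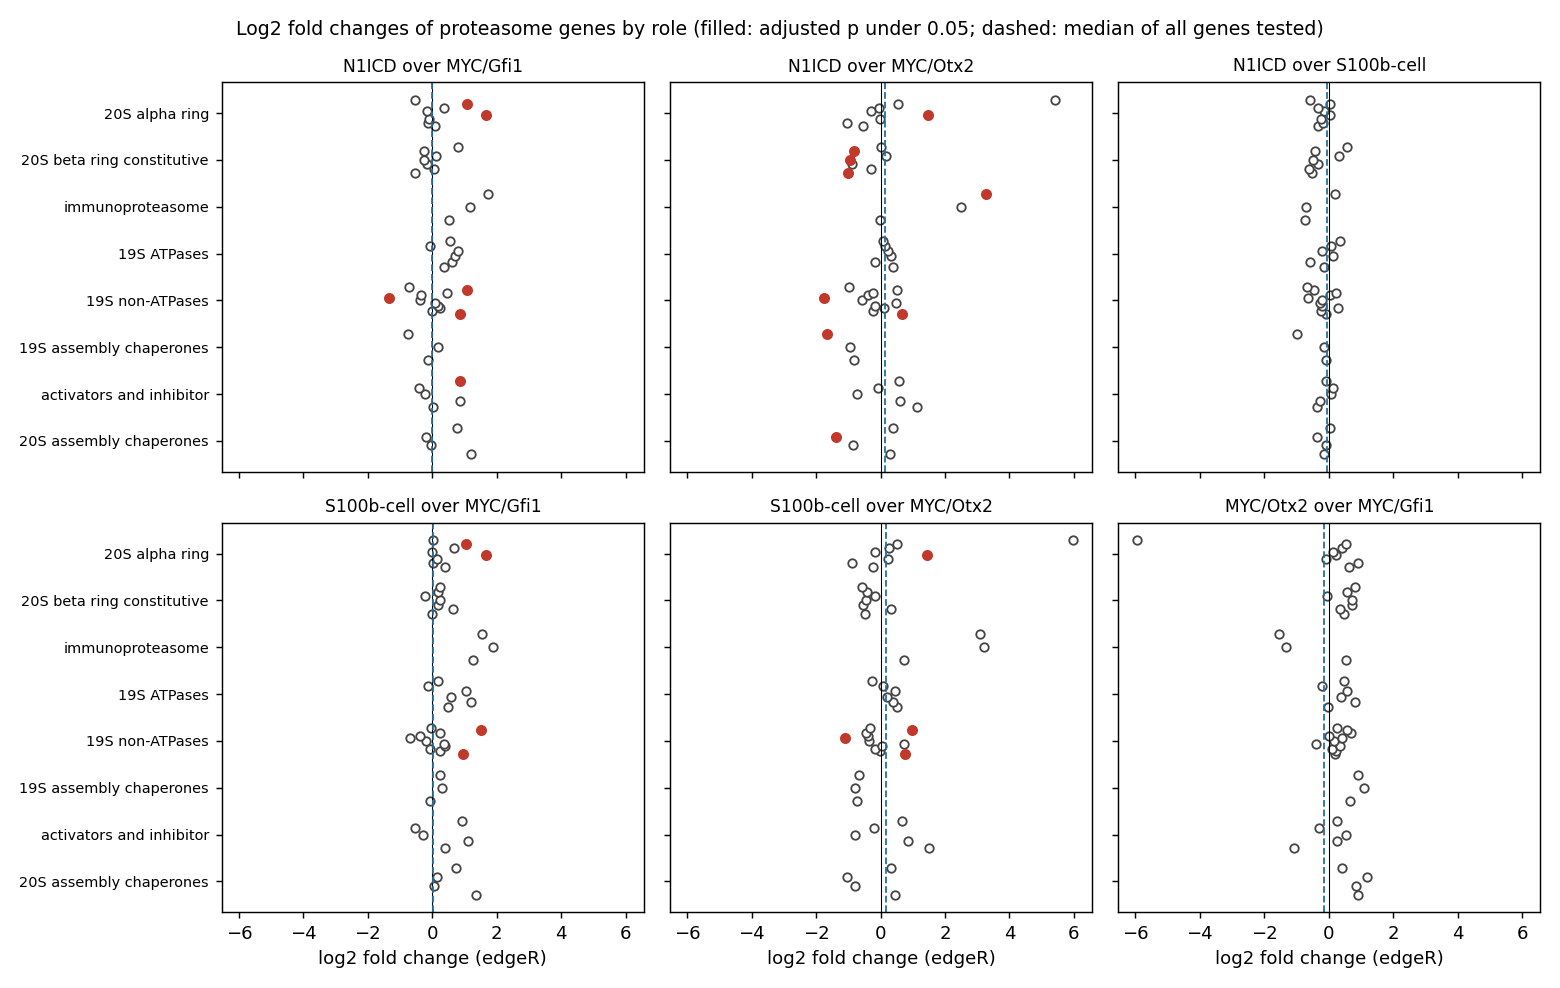
Log2 fold changes of the tested proteasome genes by role in the comparisons, 1 point per gene, with called genes marked. Marked genes lie on both sides of 0 in N1ICD over MYC/Gfi1, N1ICD over MYC/Otx2 and S100b-cell over MYC/Otx2, all above 0 in S100b-cell over MYC/Gfi1, and the other panels have none.

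After Psma8, which is at or near 0 in most libraries, the immunoproteasome subunits varied most of the 47 members, with an SD over all libraries of 1.81 for Psmb8, 1.78 for Psmb9 and 1.1202 for Psmb10 on the log2 CPM scale. The median of this SD was 0.894 over all genes tested and 0.640 over genes with a mean of at least 10 CPM. Psmb8 and Psmb9 had means of only 20.1 and 11.4 CPM, and they were not set against genes of like level. Psmb8 and Psmb9, which replace Psmb5 and Psmb6, were high in some conditional libraries and low in others. Psmb8 had 21.9, 46.7 and 2.03 CPM in N1ICD tumours, 42.1, 58.9 and 15.8 CPM in S100b-cell tumours, 8.48, 2.62 and 1.62 CPM in MYC/Otx2 tumours, and 14.9 and 6.10 CPM in MYC/Gfi1 tumours. The 3 S100b-cell libraries were above every constitutive library, while N1ICD replicate 3, at 2.03 CPM from only 5 counts, lay among the lowest MYC/Otx2 values. The log2 fold change was 3.20 ± 1.01 (SE, adjusted p = 0.0532) in S100b-cell over MYC/Otx2 and 2.48 ± 0.99 (SE, adjusted p = 0.0983) in N1ICD over MYC/Otx2, and it was 1.88 ± 1.11 (SE, adjusted p = 0.333) in S100b-cell over MYC/Gfi1 and 1.16 ± 1.08 (SE, adjusted p = 0.503) in N1ICD over MYC/Gfi1. None was called by edgeR, and the S100b-cell over MYC/Otx2 difference passed under 7 of 19 alternatives, including DESeq2 and limma-voom, and the N1ICD over MYC/Otx2 difference under 2 of 19, DESeq2 (adjusted p = 0.0304) and the removal of N1ICD replicate 3. With each library left out in turn, the log2 fold change of Psmb8 ran from 1.502 (without N1ICD replicate 2) to 3.47 (without MYC/Otx2 replicate 1) in N1ICD over MYC/Otx2, and from 2.78 (without S100b-cell replicate 2) to 4.19 (without MYC/Otx2 replicate 1) in S100b-cell over MYC/Otx2.

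Psmb9 had 23.2, 32.8 and 2.03 CPM in N1ICD tumours, 13.9, 29.4 and 7.04 CPM in S100b-cell tumours, 3.81, 1.49 and 0.693 CPM in MYC/Otx2 tumours, and 8.04 and 3.49 CPM in MYC/Gfi1 tumours. The low values rest on few counts, 5 in N1ICD replicate 3 and 27, 12 and 6 in the MYC/Otx2 libraries. The call of Psmb9 in N1ICD over MYC/Otx2 was the only one among the 3 genes, with a log2 fold change of 3.28 ± 1.00 (SE, adjusted p = 0.0415). The groups overlapped, since N1ICD replicate 3 lay below MYC/Otx2 replicate 1, and the call was lost with limma-voom (adjusted p = 0.168), with no low-count filter (adjusted p = 0.0576), with the 2 groups alone (adjusted p = 0.0545) and when any 1 library among N1ICD replicates 1 and 2, S100b-cell replicate 1 and MYC/Otx2 replicates 1 to 3 was left out (adjusted p = 0.0557 to 0.121). Without N1ICD replicate 3 the log2 fold change was 3.81 (adjusted p = 0.0173), and without N1ICD replicate 2 it was 2.66 (adjusted p = 0.113), both by edgeR. In S100b-cell over MYC/Otx2 it was 3.07 ± 0.98 (SE, adjusted p = 0.0547), with no overlap and no call, and it passed under 4 of 19 alternatives. Between N1ICD and S100b-cell tumours it was 0.20 ± 0.90 (SE, adjusted p = 0.928).

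Psmb10, which replaces Psmb7, had 6.86, 86.8 and 53.2 CPM in N1ICD tumours, 74.2, 125 and 47.2 CPM in S100b-cell tumours, 69.5, 38.5 and 41.02 CPM in MYC/Otx2 tumours, and 20.98 and 47.5 CPM in MYC/Gfi1 tumours. All pairs of groups overlapped, the S100b-cell and MYC/Gfi1 tumours only through S100b-cell replicate 3, at 47.2 CPM, and MYC/Gfi1 replicate 2, at 47.5 CPM. No comparison called it, and its smallest adjusted p by edgeR was 0.389, in S100b-cell over MYC/Gfi1.

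**Figure D4:**
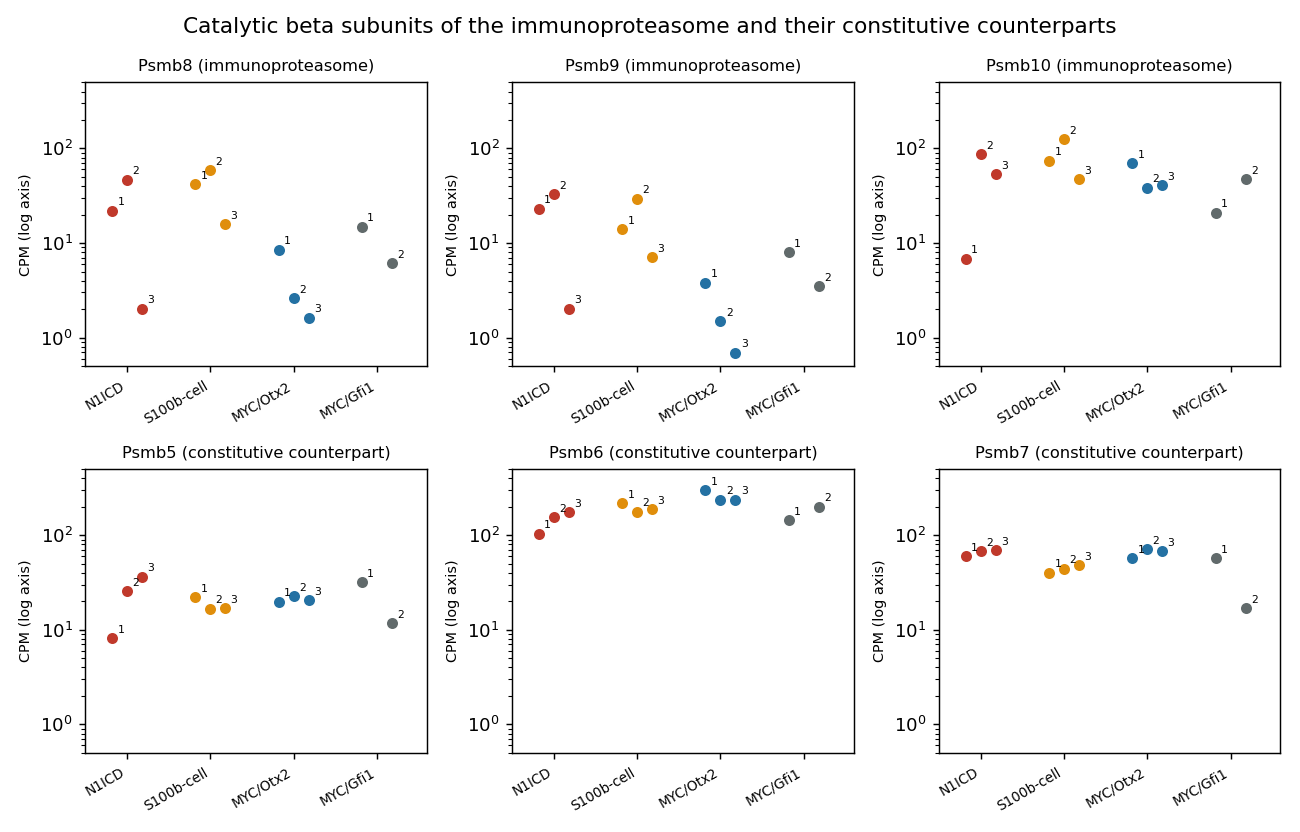
Levels of the immunoproteasome genes Psmb8, Psmb9 and Psmb10 (top) and of Psmb5, Psmb6 and Psmb7, which they replace (bottom), in CPM on a log axis, 1 point per library, numbered by replicate. N1ICD replicate 3 is low for Psmb8 and Psmb9 and replicate 1 is low for Psmb10, while Psmb6 runs from 103 to 297 CPM over all libraries.

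The count ratio of each immunoproteasome gene to its counterpart, taken within a library, is given as a description. Psmb8 over Psmb5 was 2.68, 1.84 and 0.0556 in N1ICD tumours, 1.90, 3.52 and 0.931 in S100b-cell tumours, 0.429, 0.115 and 0.0787 in MYC/Otx2 tumours, and 0.469 and 0.519 in MYC/Gfi1 tumours. All S100b-cell ratios were above all constitutive ratios, and the N1ICD ratios lay on both sides of them. Psmb5 shares most of its 50-base end words with Gm3375, so this ratio is uncertain. Psmb9 over Psmb6 was 0.224, 0.210 and 0.0116 in N1ICD tumours, 0.0643, 0.165 and 0.0376 in S100b-cell tumours, 0.0128, 0.00630 and 0.00293 in MYC/Otx2 tumours, and 0.0558 and 0.0174 in MYC/Gfi1 tumours. The S100b-cell ratios were all above the MYC/Otx2 ratios and overlapped those of MYC/Gfi1. Few counts of Psmb9 lie behind the low ratios, 5 in N1ICD replicate 3 and 6 in MYC/Otx2 replicate 3. Psmb10 over Psmb7 was 0.115, 1.29 and 0.771 in N1ICD tumours, 1.85, 2.82 and 0.977 in S100b-cell tumours, 1.22, 0.542 and 0.609 in MYC/Otx2 tumours, and 0.366 and 2.79 in MYC/Gfi1 tumours. The groups overlapped for this ratio, which is uncertain too, since Psmb7 shares most of its end words with Nek6 on the opposite strand.

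Psmb9 and Psmb8 flank the transporter gene Tap1 in the class II region of chromosome 17. Psmb9 lies at chr17:34181987-34187764 on the minus strand, Tap1 at chr17:34187553-34197225 on the plus strand and Psmb8 at chr17:34197721-34201454 on the plus strand, within 19468 bases in GRCm38. The exons of Psmb9 and Tap1 overlap by 212 bases on opposite strands, so without the strand setting their reads near that overlap cannot be told apart. The same limit holds for Psmb8, whose exons overlap those of Gm20496 by 498 bases on the opposite strand. Their RefSeq promoter windows are printed because Psmb9 and Tap1 are neighbours read in opposite directions from a shared stretch. The windows of Psmb9 and Tap1 share 275 bases. That of Psmb9 is chr17:34187281-34187580 on the minus strand, with a reverse CCAAT in capitals at -8. That of Psmb8 is chr17:34197945-34198244 on the plus strand, with a gamma-activated site (TTCNNNGAA) in capitals at -97. The Psmb9 and Psmb8 windows lie wholly inside the gene bounds given above. Their positions count from RefSeq starts that lie downstream of the annotated gene starts, whose upstream sequence was not searched. The window of Psmb5, the constitutive counterpart of Psmb8, is chr14:54617946-54618245 on the minus strand, with the antioxidant response core TGACNNNGC in capitals at -47.
Psmb9: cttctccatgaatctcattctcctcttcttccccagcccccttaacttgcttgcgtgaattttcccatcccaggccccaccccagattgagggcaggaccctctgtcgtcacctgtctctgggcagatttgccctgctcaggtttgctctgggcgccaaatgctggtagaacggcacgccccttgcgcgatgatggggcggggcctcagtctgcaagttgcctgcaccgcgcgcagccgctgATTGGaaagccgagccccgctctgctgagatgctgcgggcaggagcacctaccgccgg
Psmb8: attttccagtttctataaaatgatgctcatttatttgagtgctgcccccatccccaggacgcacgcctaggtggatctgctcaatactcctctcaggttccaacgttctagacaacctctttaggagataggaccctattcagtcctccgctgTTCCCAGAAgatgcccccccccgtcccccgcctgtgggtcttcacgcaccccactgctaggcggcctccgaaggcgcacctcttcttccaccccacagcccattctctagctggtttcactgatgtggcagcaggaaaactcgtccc
Psmb5: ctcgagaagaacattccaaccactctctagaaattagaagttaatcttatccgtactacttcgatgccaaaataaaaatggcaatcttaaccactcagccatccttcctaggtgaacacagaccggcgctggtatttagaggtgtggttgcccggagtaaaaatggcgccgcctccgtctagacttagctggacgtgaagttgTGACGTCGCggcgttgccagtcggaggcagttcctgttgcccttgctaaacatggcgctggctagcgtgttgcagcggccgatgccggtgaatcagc

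The gamma-activated letters TTCNNNGAA were found in 6.98% of the 43 proteasome windows and in 8.30% of all windows. The core of the interferon-stimulated response element, which is GAAA, any 2 bases and GAAA again, was found in 11.6% of the proteasome windows, in Psmb3, Psmd4, Psmd9, Psme1 and Psmg4, and in 3.44% of all. None of these 5 is an immunoproteasome subunit, and the absence of a match says only that these letters are not in these 300 bases.

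The interferon-inducible activator PA28, made of Psme1 and Psme2, also varied within groups. Psme1 had 24.4, 139 and 27.997 CPM in N1ICD tumours, 98.2, 102 and 47.5 CPM in S100b-cell tumours, 47.2, 23.04 and 17.6 CPM in MYC/Otx2 tumours, and 53.6 and 71.2 CPM in MYC/Gfi1 tumours. Psme2 had 10.7, 51.9 and 8.12 CPM in N1ICD tumours, 35.6, 33.95 and 15.4 CPM in S100b-cell tumours, 16.1, 14.9 and 15.8 CPM in MYC/Otx2 tumours, and 18.3 and 7.99 CPM in MYC/Gfi1 tumours. N1ICD replicate 2 was the highest library for both genes, while N1ICD replicates 1 and 3 lay among the MYC/Otx2 values for Psme1 and below them for Psme2. Neither gene was called, with a log2 fold change of 1.49 ± 0.66 (SE, adjusted p = 0.14) for Psme1 in S100b-cell over MYC/Otx2. Psme2 shares most of its 50-base end words with other genes. The remaining activators were called nowhere. Psme3, the nuclear activator PA28 gamma, had 31.7, 61.01 and 74.3 CPM in N1ICD tumours, 61.98, 51.04 and 46.7 CPM in S100b-cell tumours, 104, 85.2 and 90.6 CPM in MYC/Otx2 tumours, and 61.8 and 67.97 CPM in MYC/Gfi1 tumours. Psme4, the activator PA200, had 82.7, 113 and 86.4 CPM in N1ICD tumours, 103, 72.8 and 82.3 CPM in S100b-cell tumours, 116, 86.4 and 96.5 CPM in MYC/Otx2 tumours, and 154 and 95.3 CPM in MYC/Gfi1 tumours.

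Genes of the interferon response and class I presentation were read beside these subunits. Irf1, the interferon-induced factor that drives Psmb8, Psmb9 and Tap1, had 1.71, 265 and 2.03 CPM in N1ICD tumours, 127, 71.4 and 23.1 CPM in S100b-cell tumours, 30.4, 15.4 and 21.03 CPM in MYC/Otx2 tumours, and 43.01 and 36.2 CPM in MYC/Gfi1 tumours. Tap1, which carries peptides into the endoplasmic reticulum, had 31.3, 67.3 and 2.84 CPM in N1ICD tumours, 49.6, 55.7 and 23.1 CPM in S100b-cell tumours, 20.3, 5.61 and 6.36 CPM in MYC/Otx2 tumours, and 8.98 and 18.9 CPM in MYC/Gfi1 tumours. N1ICD replicate 3, low for Psmb8 and Psmb9, was low for both of these genes. N1ICD replicate 1 had Psmb8, Psmb9 and Tap1 above every MYC/Otx2 library but Irf1 at 1.71 CPM, the lowest of all libraries.

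Over 13 interferon response genes the summed level ran from 51.9 to 1159 CPM in N1ICD tumours, 168 to 881 CPM in S100b-cell tumours, 56.3 to 108 CPM in MYC/Otx2 tumours and 203 to 429 CPM in MYC/Gfi1 tumours. In S100b-cell over MYC/Otx2, 3 of the 13 rose, in N1ICD over MYC/Otx2 1 rose, and none was called in the other 4 comparisons. Of all genes, 10% were called higher in S100b-cell over MYC/Otx2 and 12% in N1ICD over MYC/Otx2. Over 15 microglia and macrophage markers the sum was 266 to 577 CPM in N1ICD tumours, 1394 to 1543 CPM in S100b-cell tumours, 216 to 777 CPM in MYC/Otx2 tumours (1 marker at 0) and 1080.0 to 1341 CPM in MYC/Gfi1 tumours. Over 11 lymphocyte and plasma cell markers it was 0 to 6.62 CPM in N1ICD tumours (5 markers at 0, Cd3e and Cd79a among them), 14.4 to 73.5 CPM in S100b-cell tumours, 1.25 to 6.22 CPM in MYC/Otx2 tumours (6 markers at 0) and 618 to 3407 CPM in MYC/Gfi1 tumours. The part of these cells in the levels of the immunoproteasome genes was not tested.

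**Figure D5:**
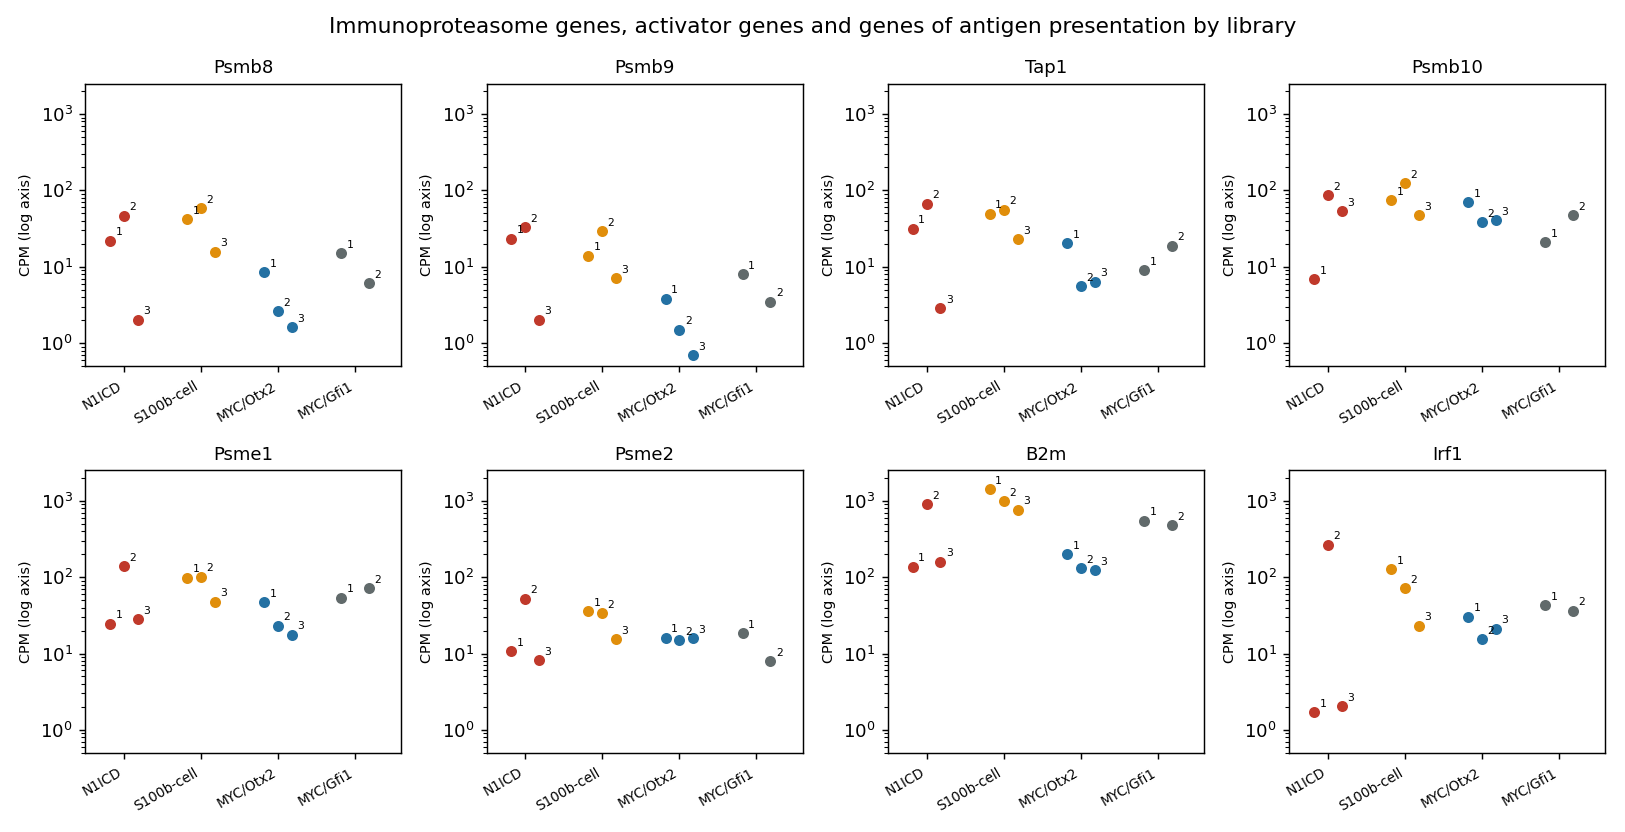
Psmb8, Psmb9, Psmb10, Psme1 and Psme2 with Tap1, B2m and Irf1 in each library, numbered by replicate, on a log axis. N1ICD replicate 2 is high for most of these genes and replicate 3 is low for Psmb8, Psmb9, Tap1 and Irf1.

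Among proteins that work with the proteasome but carry other names, few were called. Of 12 partners tested, 1 was called in N1ICD over MYC/Gfi1, 3 in N1ICD over MYC/Otx2 and 2 in S100b-cell over MYC/Otx2, with none in the other comparisons. These shares were near those of all genes, 11.5%, 21.8% and 17.9%. AI314180, the mouse gene of Ecm29, which tethers the cap to the core, had 89.6, 78.1 and 67.4 CPM in N1ICD tumours, 63.1, 57.3 and 61.5 CPM in S100b-cell tumours, 36.7, 40.2 and 37.9 CPM in MYC/Otx2 tumours, and 40.1 and 39.7 CPM in MYC/Gfi1 tumours. The conditional libraries were all above the constitutive ones, with a log2 fold change of 1.03 ± 0.19 (SE, adjusted p = 0.006) in N1ICD over MYC/Otx2, 0.97 ± 0.22 (SE, adjusted p = 0.0217) in N1ICD over MYC/Gfi1 and 0.66 ± 0.19 (SE, adjusted p = 0.0372) in S100b-cell over MYC/Otx2. Pomp, the chaperone that matures the beta ring, fell in N1ICD over MYC/Otx2, with 618, 431 and 458 CPM in N1ICD tumours, against 1159, 838 and 644 CPM in MYC/Otx2 tumours and a log2 fold change of -0.81 ± 0.26 (SE, adjusted p = 0.0483). Ube3c, a ubiquitin ligase of the proteasome, fell as well, with 58.3, 59.96 and 81.2 CPM in N1ICD tumours, against 148, 161 and 183 CPM in MYC/Otx2 tumours and a log2 fold change of -1.30 ± 0.25 (SE, adjusted p = 0.00705).

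Of 6 tested regulators of proteasome genes, 1 rose in N1ICD over MYC/Gfi1, where 5.47% of all genes did. In N1ICD over MYC/Otx2, 2 rose, where 12% did. In S100b-cell over MYC/Gfi1, 1 rose and 1 fell, where 2.34% of all genes rose and 2.01% fell. In S100b-cell over MYC/Otx2, 1 rose and 1 fell too, where 10% rose and 7.89% fell. None was called in the other comparisons. Among these regulators, Nfe2l1, the factor of the compensatory response, was called in no comparison. It had 30.9, 32.8 and 26.4 CPM in N1ICD tumours, 21.2, 23.5 and 22.99 CPM in S100b-cell tumours, 14.4, 18.6 and 24.7 CPM in MYC/Otx2 tumours, and 30.1 and 36.9 CPM in MYC/Gfi1 tumours, and its log2 fold change was 0.64 ± 0.27 (SE, adjusted p = 0.11) in N1ICD over MYC/Otx2 and 0.23 ± 0.26 (SE, adjusted p = 0.57) in S100b-cell over MYC/Otx2. Its relative Nfe2l2, the oxidative stress factor, rose in both conditional models. It had 166, 88.5 and 94.9 CPM in N1ICD tumours, 100.4, 87.5 and 101 CPM in S100b-cell tumours, 22.5, 25.4 and 21.03 CPM in MYC/Otx2 tumours, and 31.2 and 21.4 CPM in MYC/Gfi1 tumours. All 6 conditional libraries were above all 5 constitutive ones, and the log2 fold change was 2.15 ± 0.33 (SE, adjusted p = 0.00695) and 2.34 ± 0.29 (SE, adjusted p = 0.00117) in N1ICD over MYC/Gfi1 and over MYC/Otx2, and 1.87 ± 0.33 (SE, adjusted p = 0.0225) and 2.07 ± 0.28 (SE, adjusted p = 0.00222) in S100b-cell over these same groups.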

How the data were processed

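The authors deposited 1 table of raw counts, with a row for each gene symbol and a column for each library, and did not normalize it. Per the labels' protocols, RNA was taken with TRIzol and sequenced from its 3′ ends (QuantSeq FWD) with molecular identifiers added. Per the submitters' processing notes the tools were STAR 2.4.1d and HTSeq 0.6.1, with mm10. Which annotation release and strand setting were used, and whether identifiers were collapsed, was not given in the sources used here.

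Members, gene lists and tests were chosen with earlier results of these data known. Rows matching the symbol rule were read from a fit of the whole table: 15228 genes passed edgeR's filterByExpr, counts were scaled by TMM, and all 4 groups entered 1 robust quasi-likelihood fit (edgeR 4.0.16, R 4.3.3), because a group of 2 libraries gives little estimate of its own. P-values were two-sided, Benjamini-Hochberg adjusted over all genes tested, and called at 0.05. Each SE is the log2 fold change divided by the square root of F. CPM used the scaled totals of tested genes. Named genes were the called members, the immunoproteasome genes with their counterparts, and the 2 members of highest mean per role. Alternatives were RLE and upper-quartile scaling, no filter, DESeq2 1.42.0, limma-voom 3.58.1, the 2 groups alone, no mitochondrially encoded genes, a replicate block, and each library left out. The fitting code was tested on simulated data. Exon overlaps and shared 50-base words came from GENCODE on GRCm38, where all 48 symbols were found, and promoters from RefSeq. Counts were not shown to be independent molecules. No pair of libraries held the same counts (chi-square per degree of freedom within a group at least 21.3). A few genes of the context lists are counted but not reported here by name.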

Additional observations from a re-analysis of the deposited data

How the results depend on the processing

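Counts of called members were the least stable results. In N1ICD over MYC/Gfi1 the 6 calls became 3 with no low-count filter, 0 with the 2 groups alone and 2 with a replicate block. In S100b-cell over MYC/Gfi1 the 4 calls became 2 with no filter, 8 with DESeq2, 7 with limma-voom, 0 with the 2 groups alone and 0 with a replicate block. In S100b-cell over MYC/Otx2 the 4 calls became 11 with DESeq2, 9 with limma-voom and 20 with the 2 groups alone. DESeq2 called 14 in N1ICD over MYC/Otx2 (9 by edgeR), 2 in N1ICD over S100b-cell (0), 3 in MYC/Otx2 over MYC/Gfi1 (0) and 16 for any difference (8). The cause was not tested. With each library left out in turn the counts ran from 2 to 7 in N1ICD over MYC/Gfi1, 4 to 13 in N1ICD over MYC/Otx2, 0 to 1 in N1ICD over S100b-cell, 0 to 10 in S100b-cell over MYC/Gfi1, 2 to 8 in S100b-cell over MYC/Otx2, 0 to 8 in MYC/Otx2 over MYC/Gfi1 and 6 to 19 for any difference. Leaving out a MYC/Gfi1 library leaves 1 sample, assumed to vary like the other groups.

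Among single genes, signs reversed for uncalled values of Psmb10 and Psmb9. The median over the members also changed sign when 1 library was left out in N1ICD over MYC/Gfi1, N1ICD over MYC/Otx2 and S100b-cell over MYC/Otx2, and in S100b-cell over MYC/Otx2 with upper-quartile scaling (0.064). Psmb10 in N1ICD over MYC/Otx2 was 0.0060 with upper-quartile scaling, 0.30 without MYC/Otx2 replicate 1 and 0.50 without N1ICD replicate 1, and -0.72 to 0.50 over all libraries left out in turn. In N1ICD over MYC/Gfi1 it was -0.18 without N1ICD replicate 2, in a range up to 1.22. Psmb9 in N1ICD over S100b-cell was -0.23 with limma-voom, -0.19 with a replicate block, -0.41 without N1ICD replicate 2 and -0.16 without S100b-cell replicate 3, in a range up to 0.88.

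Replicate numbers were not shown to pair the samples, and with so few libraries per group the check below cannot exclude pairing. Deviations of same-numbered libraries from their group means correlated from -0.176 to 0.213 over 15 pairs, with 3 of 15 above 0.1. The replicate block is therefore only an alternative. With it 11 calls did not pass: Psma7, Psmd1, Psmd7 and Psmf1 in N1ICD over MYC/Gfi1 (adjusted p = 0.0558 to 0.132), Psma4, Psma7, Psmd1 and Psmd7 in S100b-cell over MYC/Gfi1 (0.0504 to 0.1004), and Psmb4, Psmb6 and Psmd1 in N1ICD over MYC/Otx2 (0.0517 to 0.0679).

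Depth was lowest in the N1ICD libraries, and with 2 libraries in MYC/Gfi1 a member can differ there without a call.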

Other observations

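Upstream of the proteasome, 9 ubiquitin shuttles and unfoldases, which bring tagged substrates to the cap, were tested. Of these, 1 rose and 4 fell in N1ICD over MYC/Otx2, where 12% of all genes rose and 9.76% fell. In S100b-cell over MYC/Otx2 3 fell, where 7.89% of all genes did, and none was called in the other 4 comparisons. Rad23b, a shuttle, had a log2 fold change of -0.79 ± 0.18 (SE, adjusted p = 0.0161) in N1ICD over MYC/Otx2 and -0.82 ± 0.18 (SE, adjusted p = 0.0163) in S100b-cell over MYC/Otx2, by edgeR. Ubqln1, also a shuttle, had -0.63 ± 0.20 (SE, adjusted p = 0.0443) in N1ICD over MYC/Otx2 and -0.67 ± 0.20 (SE, adjusted p = 0.0413) in S100b-cell over MYC/Otx2.

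Of 11 class I presentation genes, 1 rose in each conditional model over MYC/Gfi1, where 5.47% (N1ICD) and 2.34% (S100b-cell) of all genes rose. Over MYC/Otx2, 3 rose in N1ICD tumours and 4 in S100b-cell tumours, where 12% and 10% of all genes rose. In MYC/Otx2 over MYC/Gfi1, 1 fell, where 3.03% of all genes did. Among the 11, Pdia3, a chaperone of the peptide-loading complex, rose in all 4 comparisons of a conditional with a constitutive model. It averaged 348 ± 98.3 CPM in N1ICD tumours, 273 ± 72.6 CPM in S100b-cell tumours, 95.7 ± 2.76 CPM in MYC/Otx2 tumours (SD, n = 3 each) and 118 ± 21.4 CPM in MYC/Gfi1 tumours (SD, n = 2). Over the 11 class I genes the summed level was 723 to 2302 CPM in N1ICD tumours, 1858 to 2936 CPM in S100b-cell tumours, 518 to 874 CPM in MYC/Otx2 tumours and 1671 to 2017 CPM in MYC/Gfi1 tumours.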
